A study of Mus musculus with 8 samples.

Results

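The BCL2 family decides whether a cell goes into the mitochondrial pathway of programmed cell death, and 10 of its genes were looked up by symbol. Their probe sets had to be annotated to the symbol alone, and where a gene had several, the brightest over the 8 arrays was taken for it. That gave 9 of the 10 genes, out of 18193 genes with such a probe set, and all 9 were among the 11189 genes bright enough to be tested. Bax was not analysed here. The 9 genes had 29 probe sets, of which 26 passed the filter on dim probe sets.

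Proteins of the family fall into 3 classes. The anti-apoptotic members Bcl2, Bcl2l1 (BCL-xL) and Mcl1 hold the others in check at the outer mitochondrial membrane. The effectors, Bax and Bak1 (BAK), form pores in that membrane and let out cytochrome c, which starts caspase activation. The BH3-only proteins Bcl2l11 (BIM), Bid, Bad, Bbc3 (PUMA) and Pmaip1 (NOXA) answer to stress or loss of survival signals and bind the anti-apoptotic members, and some also switch on the effectors. In lymphocytes, survival is known to lean on Bcl2 and Mcl1, deletion of self-reactive cells on Bcl2l11, and death after p53 activation on Bbc3 and Pmaip1. Several of these proteins are set by phosphorylation, cleavage or turnover, which transcript levels do not show.

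The arrays came from splenocytes of male C57/BL6 mice. Each of the 8 arrays is a biologic replicate by its label, taken here as 1 mouse. There were 4 groups of 2 mice: wild type mice at 2 months and at 12 months of age (WT), and HMGA1a transgenic mice at the same ages (TG). HMGA1a is a chromatin protein that binds AT-rich DNA. Per the series' design text, the controls were littermates, all TG mice develop lymphoid tumours from 8 to 12 months of age, and the younger age lies before tumour onset. The promoter that drives the transgene and the number of founder lines are not given in the sources used here. The transgene's own level was not analysed here. Each group has a mouse labelled replicate 1 and another labelled replicate 2.

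Signals are on a linear scale. Differences are on the scale of log2(signal + 16), which understates the change of dim genes, and are given with their SE from a limma model of all 8 arrays. Adjusted p-values are from limma with Benjamini-Hochberg adjustment over all 11189 genes, with a threshold of 0.05. Signals of different genes come from different probes and are not set against each other.

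On each array 25% to 28.7% of probe sets had a signal under 16. B cell and T cell markers were present on every array, with a summed signal of 9 B cell genes between 13094 and 25869 and of 10 T cell genes between 3429 and 8820. The summed signal of 5 exocrine pancreas genes was 11662 on the array of the replicate 1 WT mouse of 2 months and 483 to 720.1 on the others. In splenocyte RNA, fewer cells of a type and less RNA per cell cannot be told apart.

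Sequences upstream of the gene starts are shown for 3 members. Bcl2 and Bcl2l1 were the anti-apoptotic genes with the widest range over the arrays, and Bbc3 had the smallest unadjusted p between TG and WT mice. Each is the 250 bases before the most upstream start in RefSeq (build GRCm38.p6), written 5′ to 3′ on the gene's strand. Capitals mark runs of at least 6 bases that are all A or T, and GGGCGG, the GC box, on either strand, overlaps included. The table lists 1 start for Bcl2 and 3 each for Bcl2l1 and Bbc3. Bcl2 is at chr1:106714291-106714540 (minus strand), Bcl2l1 at chr2:152831729-152831978 (minus strand) and Bbc3 at chr7:16309333-16309582 (plus strand).
Bcl2: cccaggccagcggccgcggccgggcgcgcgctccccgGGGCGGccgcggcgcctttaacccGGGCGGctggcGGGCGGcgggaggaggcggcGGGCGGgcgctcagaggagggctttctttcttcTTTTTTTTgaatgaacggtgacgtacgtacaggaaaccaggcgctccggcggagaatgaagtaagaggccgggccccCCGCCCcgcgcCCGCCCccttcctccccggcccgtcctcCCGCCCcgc
Bcl2l1: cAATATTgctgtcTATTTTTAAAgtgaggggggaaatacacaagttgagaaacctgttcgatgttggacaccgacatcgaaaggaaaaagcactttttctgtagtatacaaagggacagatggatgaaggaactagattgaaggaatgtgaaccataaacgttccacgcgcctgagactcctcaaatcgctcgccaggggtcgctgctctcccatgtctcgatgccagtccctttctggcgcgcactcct
Bbc3: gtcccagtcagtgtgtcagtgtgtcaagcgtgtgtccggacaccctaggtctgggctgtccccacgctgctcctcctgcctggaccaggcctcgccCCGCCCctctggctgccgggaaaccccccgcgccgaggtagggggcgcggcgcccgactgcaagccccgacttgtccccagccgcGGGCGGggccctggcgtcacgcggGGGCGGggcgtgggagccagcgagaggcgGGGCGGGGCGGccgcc

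These windows differ in base composition. A or T made up 52.4% of the Bcl2l1 window, 25.2% of the Bcl2 window and 23.6% of the Bbc3 window, and the median over 27025 genes was 48%. The Bcl2l1 window held 2 A/T runs, the longer of 10 bases, that of Bcl2 held 1 run of 8 bases, and that of Bbc3 held none. Of all windows, 67.6% had at least 1 such run. GC boxes numbered 7 for Bcl2 and 5 for Bbc3, with none for Bcl2l1, and 33.0% of all windows had at least 1. Windows were found for 8 of the 9 measured members, 7 of which were below the median in A and T and 6 of which had a GC box. These are descriptions of the letters and were not tested against expression.

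At 2 months, before tumours, no family member passed the test between TG and WT mice. Of the 9 members 5 were higher and 4 lower in TG mice, with a median log2 difference of 0.00 (0.01 over all genes, of which 52.5% were higher). Over all 11189 genes, 0 passed (0%), and 44 (0.393%) had an unadjusted p under 0.05, none of them a family member. In no member, on the set that stands for it, did both TG mice lie above both WT mice or both below. Over all genes 10.1% lay above and 7.83% below.

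Bcl2l1 was the member with the largest difference at 2 months. Its signal was 336 and 586 in the replicate 1 and replicate 2 WT mice and 503 and 925 in the TG mice. The TG mouse was thus higher within each replicate, by 0.56 and 0.64 on the log2 scale, but the ranges overlapped because replicate 2 was higher in both genotypes. The log2 difference was 0.60 ± 0.33 (95% interval -0.15 to 1.36, limma adjusted p = 1.00). Blocked on replicate number, it had an unadjusted p of 0.0301 and an adjusted p of 1.00, where 1.69% of all genes were under 0.05 unadjusted. It was 0.17 without the replicate 2 TG mouse and 1.03 without the replicate 1 TG mouse, and 0.21 and 0.99 without the replicate 1 and replicate 2 WT mice. That replicate 1 WT array is the one with the pancreas sum of 11662. The replicate 2 TG mouse also had the highest summed signal of 6 erythroid genes, 17863 against 5790 to 12416 on the other arrays. BCL-xL is known to keep maturing red cell precursors alive, and the part of erythroid cells in this value was not tested.

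The other Bcl2l1 probe sets ran the same way at 2 months. All 3 that passed the filter were higher in TG mice, with log2 differences of 0.60, 0.79 and 0.40, and the set dropped as dim, 1426050_at, had signals between 2.27 and 22.6. On the set 1420887_a_at the WT mice read 61.5 and 173 and the TG mice 130 and 286, again with replicate 2 the higher in both genotypes.

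Bcl2, the founding anti-apoptotic member, had signals of 392 and 314 in WT and 380.1 and 277 in TG mice of 2 months. Groups overlapped, and the log2 difference was -0.11 ± 0.32. Of its other probe sets, 1422938_at was at -0.08. On 1437122_at both TG mice, at 323 and 316, lay above both WT mice, at 298 and 275, a difference of 0.15 ± 0.20. On 1440770_at both TG mice, at 101 and 103, lay below both WT mice, at 128 and 129, a difference of -0.29 ± 0.21 (adjusted p = 1.00, limma). On 1443837_x_at they also lay below, at 276 and 256 against 359 and 312 (-0.32 ± 0.18, adjusted p = 1.00). Mcl1, a short-lived anti-apoptotic protein, had 4524 and 3559.5 in WT and 4480.2 and 2909 in TG mice. Its difference was -0.15 ± 0.26, and its 6 probe sets lay between -0.18 and -0.12. On the Mcl1 set 1448503_at both TG mice, at 3145 and 2869, lay below both WT mice, at 3433 and 3356. The Mcl1 set 1416881_at also had both TG mice below, at 1134 and 1144 against 1185 and 1290.

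Of the effectors, Bak1 had signals of 204 and 312 in WT and 273 and 329 in TG mice of 2 months, a log2 difference of 0.23 ± 0.26. The replicate 1 WT mouse was the lowest of all 8 arrays. Without it the difference was -0.05. It is the array that stands apart for pancreas genes, whose part in this value was not tested.

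Bid, Bcl2l11 and Bad, all BH3-only genes, had differences near 0 at 2 months. Bid, which caspase-8 cleaves to link death receptors to mitochondria, had 389.8 and 378 in WT and 392 and 378 in TG mice, a log2 difference of 0.00 ± 0.16. That was the narrowest interval of the family, from -0.37 to 0.37. Bcl2l11 stood at 656 and 606 against 707 and 573 (0.01 ± 0.24). Bad, whose protein growth factor signalling holds inactive by phosphorylation, stood at 243 and 264 against 242 and 252 (-0.03 ± 0.29). In these 3 genes the genotypes overlapped.

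The p53 targets Bbc3 and Pmaip1 showed more spread. Bbc3 had signals of 112 and 171 in WT and 170.0 and 167 in TG mice of 2 months. Only the replicate 1 WT mouse was low, and the log2 difference of 0.26 ± 0.23 was -0.02 without it. This too is the array with the high pancreas sum, and the part of pancreas RNA was not tested. Pmaip1 had 387 and 246 in WT and 439 and 214 in TG mice. Its log2 difference was -0.01 ± 0.42 (95% interval -0.96 to 0.95), the widest interval of the family in the fit without a replicate block. With replicate number as a block its SE was 0.15.

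**Figure D1:**
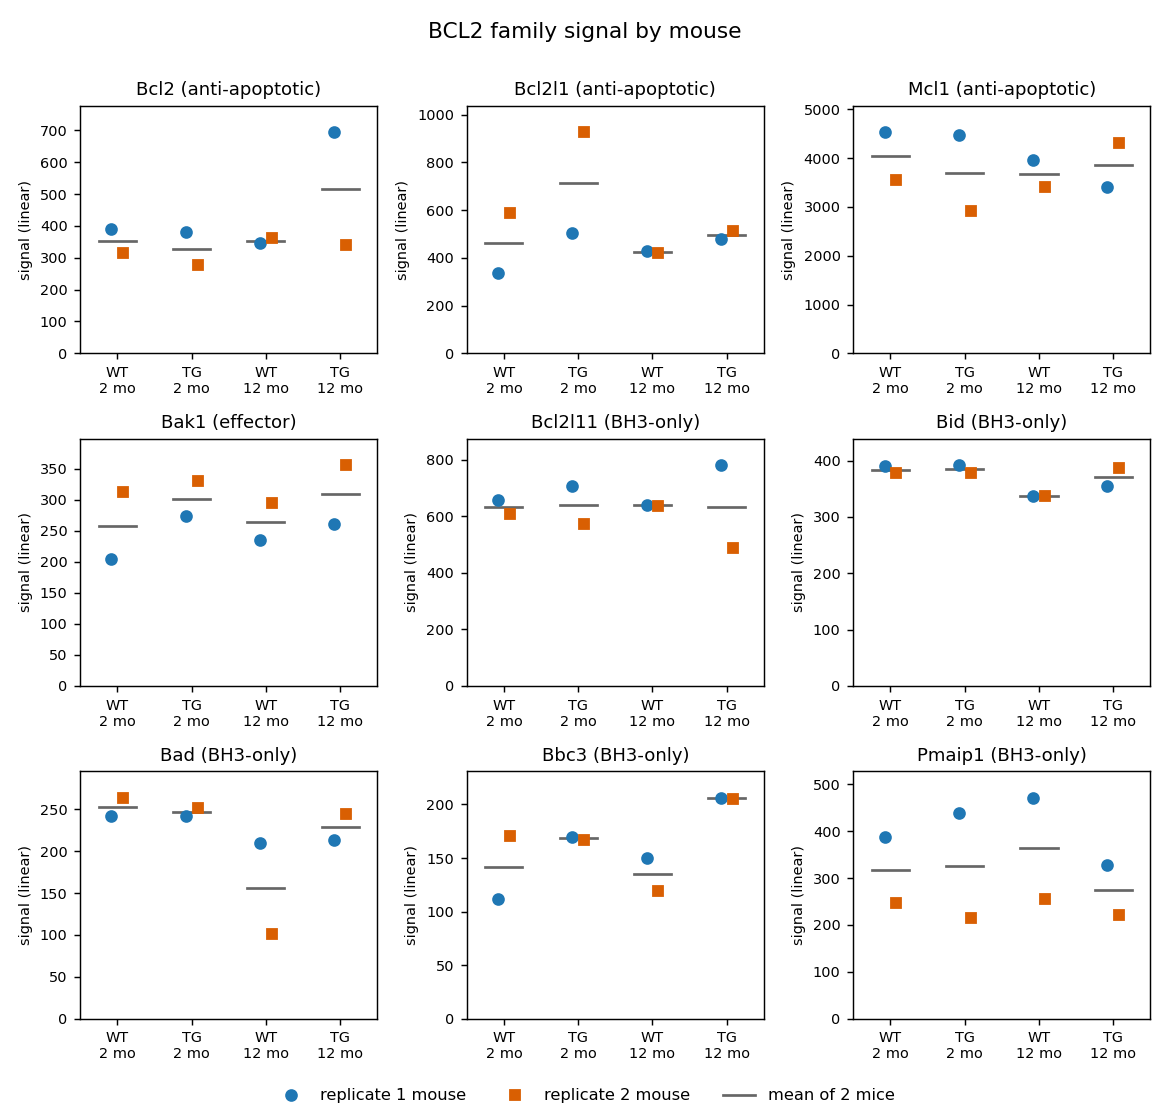
Signal of the probe set that stands for each of the 9 measured genes on a linear axis starting at 0, by genotype and age. Circles are replicate 1 mice, squares replicate 2 mice, and bars the mean of 2 mice. Bbc3 was at 206 and 205 in TG mice of 12 months, above the other 6 arrays, and Bcl2 at 694 in a single TG mouse.

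At 12 months, an age at which TG mice have tumours, 7 of the 9 members were higher in TG than in WT mice and 2, Bcl2l11 and Pmaip1, were lower, although none passed the test (smallest adjusted p = 0.630, limma). With quantile or loess scaling Mcl1 turned lower and 6 of 9 were higher. The family's median log2 difference was 0.20 (0.14 in replicate 1, 0.26 in replicate 2), against -0.03 over all genes, of which 45.2% were higher. Both TG mice lay above both WT mice for 4 members, Bcl2l1, Bid, Bad and Bbc3, and below for 0. These counts are for the sets that stand for the genes. Over all genes 14.3% lay above and 19.9% below. The count of 4 was the same with quantile and with loess scaling. Over all 11189 genes 0 passed (0%) and 865 (7.73%) had an unadjusted p under 0.05, 1 of them a member. A block for replicate number left 5 genes (0.0447%) past the test, none of them a member, and 2 members were among the 19.9% of genes with an unadjusted p under 0.05.

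Bbc3 had the smallest p of the family at 12 months. It encodes PUMA, which binds every anti-apoptotic member. Its signal was 150 and 119.6 in WT and 206 and 205 in TG mice. Both TG mice were above both WT mice, and also above the other arrays. The log2 difference was 0.56 ± 0.23 (95% interval 0.03 to 1.10), 0.42 within replicate 1 and 0.70 within replicate 2, with an unadjusted p of 0.0419 and an adjusted p of 0.630 (limma; 0.197 with the replicate block). Leaving out single arrays gave 0.42 to 0.71. A single probe set stands for this gene, so no second measurement of it was at hand.

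Bad had a log2 difference of nearly the same size, which came from 1 mouse. Its signal was 210.4 and 101 in WT and 213 and 245 in TG mice of 12 months. The replicate 2 WT mouse was the lowest of all 8 arrays, while the replicate 1 WT mouse was close to its TG partner. The difference was 0.59 ± 0.29 (adjusted p = 0.697, limma), 0.02 within replicate 1 and 1.15 within replicate 2, and 0.11 without the replicate 2 WT mouse. The other Bad probe set gave 90.7 and 88.0 in WT and 101 and 156 in TG mice. There the replicate 2 WT mouse did not stand apart from the replicate 1 WT mouse, and the log2 difference was 0.43 ± 0.26.

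Bcl2 was high in 1 of the TG mice of 12 months. Its signal was 346 and 362 in WT mice, 694 in the replicate 1 TG mouse and 339 in the replicate 2 TG mouse. The log2 difference was 0.44 ± 0.32 (adjusted p = 0.809, limma), 0.97 within replicate 1 and -0.09 within replicate 2, and -0.06 without the replicate 1 TG mouse. That mouse also had the highest T cell sum, 8820 against 3429 to 6260 on the other arrays, and the lowest B cell sum, 13094 against 19144 to 25869. Bcl2 is known to be set differently between lymphocyte types and stages, and the part of cell composition in this value was not tested.

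The 5 Bcl2 probe sets did not move together at 12 months. Besides the 1 above, 1422938_at had 155 and 149.9 in WT and 274 and 189 in TG mice, without overlap, a log2 difference of 0.53 ± 0.24 (adjusted p = 0.657 over 19308 probe sets, limma). The set 1437122_at was at 0.21 ± 0.20 and 1440770_at at -0.11 ± 0.21. The set 1443837_x_at went the other way, with 420.3 and 507 in WT and 358 and 338 in TG mice, both TG mice below both WT mice. Its difference was -0.39 ± 0.18 (adjusted p = 0.681). At 2 months this set was lower in TG mice too. Which transcripts each set reports is not given in the annotation used here.

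**Figure D2:**
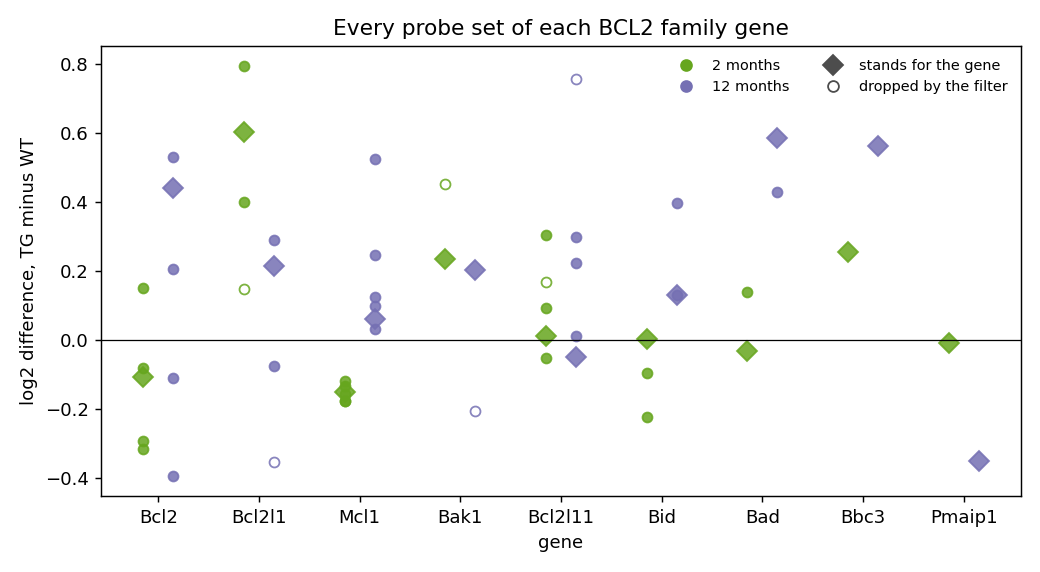
Log2 difference of TG minus WT mice (y axis) for all 29 probe sets of the 9 genes (x axis), at 2 months (green) and at 12 months (purple). Diamonds are the probe sets that stand for a gene, and open circles the 3 dropped as dim. At 12 months the Bcl2 sets ran from -0.39 to 0.53, while the 6 Mcl1 sets ran from 0.03 to 0.52.

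Bcl2l1 and Mcl1, the other anti-apoptotic genes, moved less at 12 months. Bcl2l1 had 429 and 419.7 in WT and 479 and 511 in TG mice. The TG mice lay above, with a log2 difference of 0.21 ± 0.33 (adjusted p = 0.932, limma), but the probe set 1420887_a_at gave -0.07 ± 0.48. The set 1426191_a_at gave 0.29 ± 0.46, with TG mice at 52.3 and 65.0, above both WT mice at 47.9 and 41.8. Mcl1 had 3952 and 3414 in WT and 3417 and 4307 in TG mice, which overlap. Its difference was 0.06 ± 0.26, -0.21 within replicate 1 and 0.33 within replicate 2, -0.06 with quantile and -0.03 with loess scaling. On the Mcl1 set 1416881_at, WT mice had 975 and 1026 and TG mice 1095 and 1906, a difference of 0.52 ± 0.26 (adjusted p = 0.695). The replicate 2 TG mouse was the highest of the 8 arrays on this set. Its summed signal of 10 neutrophil genes was 21938. The replicate 2 mice of 2 months had 21475 (WT) and 26073 (TG), and the others 5994 to 10553. Neutrophils are known to depend on Mcl1, and their part in this value was not tested.

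Bak1 had 235 and 294 in WT and 261 and 355 in TG mice of 12 months. The TG mouse was higher within each replicate, by 0.14 and 0.26, and the groups overlapped (0.20 ± 0.26, adjusted p = 0.916, limma). Bid had 336 and 337 in WT and 354 and 386 in TG mice. The ranges were apart by a small margin, and the log2 difference was 0.13 ± 0.16 (95% interval -0.24 to 0.50). The other Bid probe sets were at 0.13 and 0.40, and at -0.22 and -0.10 at 2 months.

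Bcl2l11 had the 2 TG mice of 12 months at opposite ends. It stood at 641 and 636 in WT mice, 780.4 in the replicate 1 TG mouse and 487 in the replicate 2 TG mouse, the highest and the lowest of the 8 arrays. The log2 difference of -0.05 ± 0.24 therefore averages 0.28 and -0.37. The other Bcl2l11 sets that passed the filter were higher in TG mice on average, by 0.01, 0.22 and 0.30, so the sign of this gene depends on the set. In each of them the replicate 1 TG mouse had the highest signal of the 8 arrays. The dim set 1426334_a_at also had its highest signal, 90.4, in the replicate 1 TG mouse, against 26.0 to 67.0 elsewhere. This is the mouse with the highest T cell and lowest B cell sums. Bcl2, whose protein binds that of Bcl2l11, was also at its highest in it on 3 of 5 probe sets, but 1440770_at and 1443837_x_at were highest in WT mice of 12 months.

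Pmaip1 was the member with the lowest difference at 12 months. Its signal was 471 and 255 in WT and 328 and 221 in TG mice. The TG mouse was lower within each replicate, by 0.50 and 0.20, so that Pmaip1 and Bbc3, both known p53 targets, had differences of opposite sign. The log2 difference was -0.35 ± 0.42 (adjusted p = 0.909, limma), and 0.07 without the replicate 1 WT mouse. With the replicate block its unadjusted p was 0.0464 (adjusted p = 0.242).

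**Figure D3:**
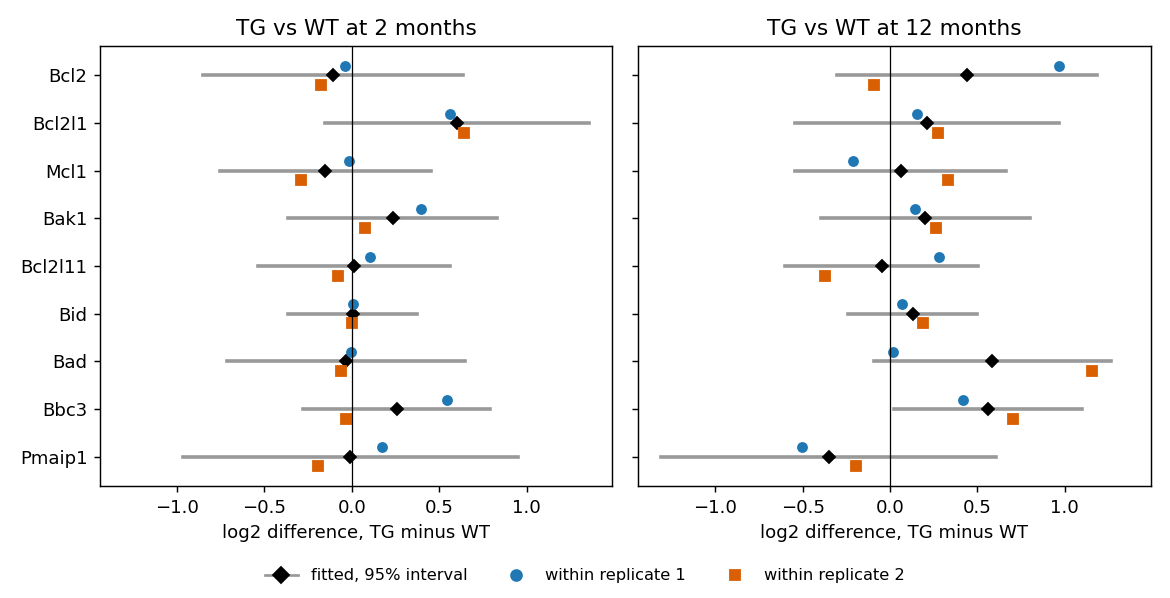
Log2 difference of TG minus WT mice (x axis) for each gene (y axis) at both ages. Diamonds with bars are fitted values with 95% intervals, circles and squares the differences within replicate 1 and replicate 2. At 12 months the bar of Bbc3 runs from 0.03 to 1.10, and the replicate values of Bcl2 lie at 0.97 and -0.09.

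Other measures moved with genotype at 12 months. All 13 mitosis genes tested were higher in TG mice, as were 45.2% of all genes, and 11 of them without overlap, as were 14.3% of all genes. Of the T cell genes 8 of 10 were higher, and 8 of 9 B cell and 9 of 10 macrophage genes were lower. Of 10 neutrophil genes 9 were higher, and their median was -0.08 for the replicate 1 mice and 1.85 for the replicate 2 mice. The counts of higher and lower genes were alike at 2 months for all but macrophage genes. There 13 of 13 mitosis, 8 of 10 T cell and 9 of 10 neutrophil genes were higher in TG mice, and 8 of 9 B cell genes lower. Of macrophage genes 6 of 10 were higher at 2 months. At 2 months 0 of the 13 mitosis genes were higher without overlap, as were 10.1% of all genes. The mitosis median was 0.25 at 2 months (0.02 within replicate 1, 0.51 within replicate 2) and 0.67 at 12 months (0.70 and 0.54). Summed signals of the mitosis genes were 5748 and 6454 in WT and 7632 and 9590 in TG mice. RNA quality was read from control probe sets, as the 3' signal over the 5' signal. For Gapdh it was 1.25 and 1.73 in WT and 0.843 and 1.21 in TG mice. For actin it was 1.48 and 1.31 in WT and 1.20 and 1.10 in TG mice. The part of cell composition, division and RNA quality in the family's values was not tested.

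The TG effect of 12 months minus that of 2 months was also fitted. It was largest for Bad (0.62 ± 0.42) and Bcl2 (0.55 ± 0.46). For Bad it was 0.02 within replicate 1 and 1.21 within replicate 2, and 0.14 without the older replicate 2 WT mouse. For Bcl2 it was 1.01 and 0.08, and 0.05 without the older replicate 1 TG mouse. It was lowest for Bcl2l1 (-0.39 ± 0.46, 0.04 without the younger replicate 2 TG mouse and -7.9e-05 without the younger replicate 1 WT mouse) and Pmaip1 (-0.34 ± 0.59). None of the 9 members passed (smallest adjusted p = 1.00, limma), nor did any of the 11189 genes (0%). At an unadjusted p under 0.05 there were 213 genes (1.9%; 8.14% with the replicate block), 0 of them members either way. Higher effects at 12 months were found in 5 of 9 members and 43.7% of all genes. For Bcl2l1 the effect was smaller at 12 months within both replicates, by -0.41 and -0.37. For Bbc3 it was 0.31 ± 0.33, but -0.12 within replicate 1.

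Ageing was compared first in WT mice. Of 9 members 4 were higher and 5 lower at 12 months, with a median of -0.04 (0.01 over all genes, 51.4% of them higher), and none passed the test (0% of all genes did). Bad alone was among the 1.53% of genes at an unadjusted p under 0.05, and 1 member was among 5.17% with the replicate block. On the sets that stand for the genes, Bad and Bid were lower in both mice of 12 months than in both of 2 months. No member was higher in that way, where 10.9% of all genes were lower and 12.7% higher. For Bad the log2 difference was -0.72 ± 0.29 (unadjusted p = 0.0395, adjusted p = 1.00, limma), -0.19 within replicate 1 and -1.26 within replicate 2. Leaving out the older replicate 2 WT mouse gave -0.25. For Bid it was -0.18 ± 0.16, -0.20 and -0.16 within the replicates, from 389.8 and 378 to 336 and 337. The other Bad set was also lower without overlap (-0.24 ± 0.26), but the other Bid sets overlapped, at -0.05 and -0.05. Bcl2 sets 1443837_x_at (0.45 ± 0.18) and 1437122_at (0.21 ± 0.20) were higher without overlap. Mcl1 sets 1416881_at (-0.30 ± 0.26) and 1448503_at (-0.13 ± 0.20) were lower. The Bcl2l1 set 1420887_a_at was at 0.79 ± 0.48, with overlap. None of these sets passed the test. With age in WT mice, 10 of 10 T cell genes and 10 of 10 neutrophil genes were lower and 9 of 10 macrophage genes higher. The neutrophil median was 0.80 within replicate 1 and -1.53 within replicate 2, and only 2 of 10 genes had the same sign in both. The T cell medians were -0.45 and -0.16 and the macrophage medians 0.47 and 0.15. The part of cell composition was not tested.

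In TG mice the same interval spans tumour growth. Again 4 members were higher and 5 lower at 12 months (median -0.04, also -0.04 over all genes, 43.7% of them higher), and 1 of 11189 genes (0.00894%; 21 or 0.188% with the replicate block) passed, no member among them. At an unadjusted p under 0.05 stood 0 members (4.72% of all genes), and 1 with the replicate block (13.4%). Bbc3 went from 170.0 and 167 to 206 and 205, without overlap, a log2 difference of 0.26 ± 0.23 with 0.26 and 0.27 within the replicates (adjusted p = 1.00, limma). On the sets that stand for the genes it was the only member without overlap here, where 10.3% of all genes were higher and 17.4% lower. Bcl2 had a difference of 0.56 ± 0.32 on the set that stands for it, 0.84 within replicate 1 and 0.28 within replicate 2. This was 0.06 once the older replicate 1 TG mouse was left out. On each of the other Bcl2 sets both TG mice of 12 months lay above both of 2 months, with log2 differences of 0.50, 0.26, 0.21 and 0.37. The Mcl1 set 1448503_at (0.30) and the Bid set 1448560_at (0.45) also lay above without overlap. None of these sets passed the test. Bcl2l1 had -0.45 ± 0.33, made of -0.07 and -0.84, and -0.02 once the younger replicate 2 TG mouse was left out. With age in TG mice 13 of 13 mitosis genes and 6 of 10 T cell genes were higher, and 8 of 9 B cell genes lower. The medians of these lists differed in sign between the replicates. Within replicates 1 and 2 they were 1.02 and -0.08 for mitosis, 0.37 and -0.18 for T cell and -0.80 and 0.18 for B cell genes. The part of cell composition and division was not tested. The comparisons of age and of genotype share arrays, so these values are not independent of those above.

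Some members differed between the replicate numbers in every group. Pmaip1 lay between 328 and 471 on the 4 replicate 1 arrays and between 214 and 255 on the 4 replicate 2 arrays, a log2 difference of -0.75. Bak1 ran the other way, from 204 to 273 on replicate 1 and from 294 to 355 on replicate 2 arrays (0.39). Bcl2l11 was at 641 to 780.4 and at 487 to 636 (-0.27). These 3 of 9 members had no overlap between the replicates, as did 27.2% of all genes (14.4% higher and 12.8% lower in replicate 2), a share near that of the family. The Gapdh 3' over 5' ratio was also higher in replicate 2 in every group, at 1.21 to 1.73 against 0.843 to 1.25. That of actin went the other way in every group, at 1.10 to 1.31 in replicate 2 against 1.20 to 1.48 in replicate 1. The part of RNA quality in these differences was not tested. What the replicate number stands for beyond separate mice is not given in the labels.

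Members differed in how much they varied over the 8 arrays. Bid was the steadiest, with an SD of 0.09 on the log2 scale, at the 1.90th percentile of the genes tested. Pmaip1, Bcl2l1 and Bad were the most variable, with SDs of 0.43, 0.42 and 0.41, and Mcl1 was at 0.23.

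Among all genes tested, the profiles most like that of Bcl2l1 over the 8 arrays were those of Armc9 (Pearson r = 0.974, Spearman rho = 0.905) and of Ap2a1, an adaptor subunit of clathrin coats (0.959 and 0.976). They stood at 0.806 and 0.803 without the 2 arrays farthest from the Bcl2l1 median. For Mcl1 they were Rexo4 (0.945 and 0.905) and the prefoldin subunit Pfdn5 (0.942 and 0.810), with 0.879 and 0.936 without the 2 farthest arrays. For Bcl2 they were Mphosph6 (0.961 and 0.786) and Ms4a6d (0.950 and 0.619), and these fell to 0.577 and 0.373 without the 2 farthest arrays, so the likeness rests on those. These genes are the highest of 11189 screened and carry no p-value, and the arrays share genotype, age and replicate differences.

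Beyond the 9 members, 8 further genes of the wider family could be tested. At 12 months 4 were higher and 4 lower in TG mice (median -0.03), and none passed. Bmf, a BH3-only protein that responds to loss of attachment and of survival factors, was at 273 ± 23.0 in WT and 159 ± 38.2 in TG mice (SD, n = 2). Its log2 difference was -0.74 ± 0.22 (-1.04 and -0.43 within the replicates, unadjusted p = 0.0102, adjusted p = 0.586, limma), larger in size than that of any of the 9 members. Hrk, another BH3-only gene, had 64.1 ± 17.8 and 44.3 ± 6.24 (0.39 ± 0.30). At 2 months 4 of the 8 were higher, and the pore-forming relative Bok had 274 ± 12.4 in TG and 176 ± 48.4 in WT mice. The difference of Bok was 0.62 ± 0.22 (0.92 and 0.32 within the replicates, adjusted p = 1.00). Bcl2l14 went the other way there, at 82.1 ± 4.50 in TG and 103 ± 21.2 in WT mice (-0.27 ± 0.30). With age, Bcl2l14 had -0.24 ± 0.30 and the anti-apoptotic Bcl2l2 0.09 ± 0.17 in WT mice, and Bmf -0.51 ± 0.22 and Bcl2l2 -0.25 ± 0.17 in TG mice.

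Downstream of the mitochondria, 13 genes of the apoptosome, caspases and released proteins were tested. At 12 months 8 were higher and 5 lower in TG mice (median 0.02), and none passed. Casp9, the initiator caspase of this pathway, had 115 ± 2.93 in TG and 152 ± 24.0 in WT mice (-0.35 ± 0.20). The outer membrane channel Vdac2 had 2450 ± 90.9 and 1947 ± 358 (0.34 ± 0.22). At 2 months 7 were higher and 6 lower. There Diablo, which blocks the inhibitors of apoptosis, had a difference of -0.31 ± 0.21 and Casp6 of 0.11 ± 0.22. With age the mitochondrial nuclease gene Endog had -0.19 ± 0.22 in WT and -0.31 ± 0.22 in TG mice, and Vdac2 0.26 ± 0.22 in TG mice.

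Of the 5 genes for inhibitors of apoptosis proteins, which bind caspases or their adaptors, 4 were lower in TG mice at 12 months and 1 higher (median -0.26), and none passed. Birc3, also a target of NF-kB, had 943 ± 144 in TG and 1343 ± 250 in WT mice (SD, n = 2). Its log2 difference was -0.50 ± 0.20 (-0.53 and -0.47 within the replicates, adjusted p = 0.627, limma). Birc2 had 731 ± 0.680 and 946 ± 111 (-0.36 ± 0.19). Birc5 (survivin), which is made in dividing cells, was the 1 that was higher, at 0.41 ± 0.40. At 2 months 4 of 5 were lower, with a median of -0.08. There was no gene whose groups lay apart, where 10.1% of all genes lay above and 7.83% below. With age, Xiap had 0.11 ± 0.17 in WT and Birc3 -0.32 ± 0.20 in TG mice.

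Death receptor genes were split at 12 months, with 4 of 8 higher in TG mice (median -0.03). Tradd had -0.15 ± 0.17 and Casp8 -0.10 ± 0.16. The receptor gene Fas had a larger difference, 0.92 ± 0.46 (adjusted p = 0.693, limma), with groups that overlapped. At 2 months 6 of 8 were higher, with the ligand Tnfsf10 (TRAIL) at 0.50 ± 0.36 and the ligand Fasl at -0.30 ± 0.27. With age, Tnfsf10 had 0.57 ± 0.36 and Fasl 0.12 ± 0.27 in WT mice, and Fasl 0.68 ± 0.27 and Tradd -0.41 ± 0.17 in TG mice. None passed the test.

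Of 11 regulators of family genes and proteins, 4 were higher and 7 lower in TG mice at 12 months (median -0.06). E2f1 had 201 ± 68.8 in TG and 128 ± 14.8 in WT mice (0.56 ± 0.40), and Stat5b, which carries cytokine survival signals, 415 ± 63.3 and 505 ± 63.3 (-0.28 ± 0.20). At 2 months 5 were higher and 6 lower, and Mdm2, the p53 ubiquitin ligase, had 0.17 ± 0.18. With age, Foxo3, a factor that can drive Bcl2l11 and Bbc3, had 0.60 ± 0.42 in WT and -0.69 ± 0.42 in TG mice. Between TG and WT mice Foxo3 had 0.88 ± 0.42 at 2 months and -0.41 ± 0.42 at 12 months (adjusted p = 1.00 and 0.886, limma), and the difference of these effects was -1.29 ± 0.60 (adjusted p = 1.00). Mdm2 had 0.20 ± 0.18 with age in WT mice and Foxo1 -0.43 ± 0.24 in TG mice. None of these passed the test.

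**Figure D4:**
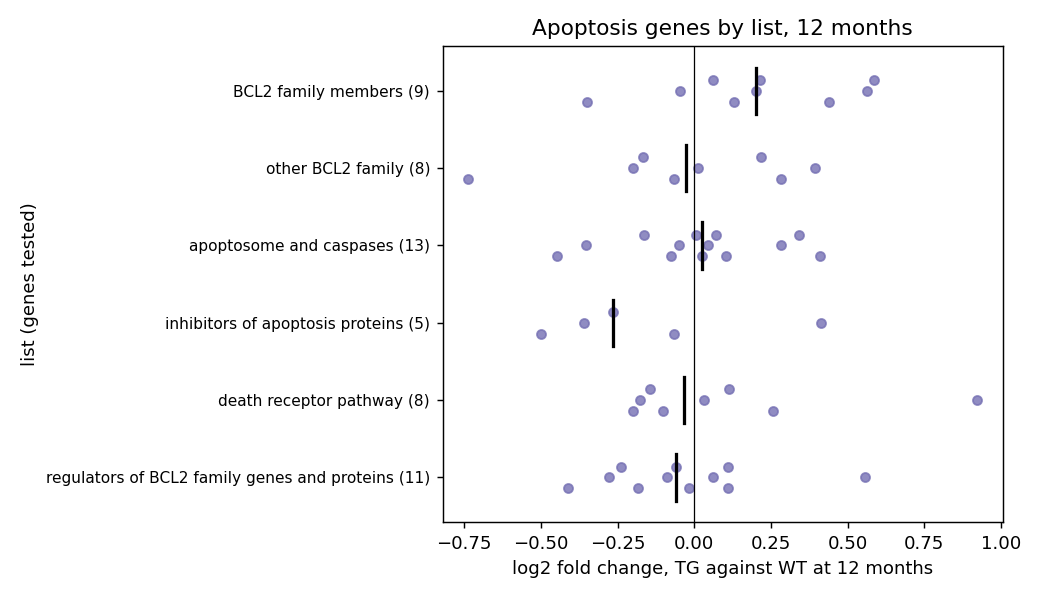
Log2 fold change of TG against WT mice at 12 months (x axis) for each gene tested, in rows by list (y axis, genes tested in brackets). Points are genes and black bars the median of a list, at 0.20 for the 9 BCL2 family members and -0.26 for the 5 inhibitors of apoptosis proteins.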

How the data were processed

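Splenocyte RNA of 8 mice was measured on Affymetrix mouse arrays. Per the submitters' processing notes, the deposited intensities were made by the authors with GCOS 1.4 and MAS5. The trimmed mean of every array was 150.001, as with scaling by 1 factor per array. Of 45101 probe sets, 34945 had 1 gene symbol, 932 several and 9224 (64 controls included) none in the platform annotation. Symbols were updated through gene identifiers for 34754 of 34958 annotated probe sets. Some probe sets can bind related transcripts.

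Log2(signal + 16) was used throughout. Probe sets under the median of mean log2 values were dropped, the brightest of each gene was kept, and 4 group means were fitted with limma 3.58.1 (R 4.3.3, eBayes with trend, 4 residual degrees of freedom), tested on simulated data. P-values are 2-sided and rest on 2 mice per group, so the number of arrays limits precision. Over genes, replicate differences of any pair of the 4 groups were correlated (6 pairs, r from 0.464 to 0.654), so the numbers pair arrays. SEs, intervals and p-values are from the fit that leaves this pairing out, except where a replicate block is named. Members and lists were chosen with earlier results of these data known. From each wider list, genes past the test are named, otherwise the 2 with the smallest p whose groups lie apart, and Birc5, Fas and further Foxo3 values were added after they were seen.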

Additional observations from a re-analysis of the deposited data

How the results depend on the processing

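No member passed the test under any of the 17 alternatives, which were pseudocounts of 1 and 64, no or a stricter filter, quantile and loess scaling, probe sets averaged per gene, every probe set on its own, the replicate block and leaving out each array. The smallest adjusted p of a member was 0.197 with the replicate block. The stricter filter dropped Bbc3. The replicate block changed no call of a member. It cannot change a sign, as each group holds 1 mouse of each replicate number. It gave 5 genes past the test between TG and WT mice of 12 months and 21 with age in TG mice, against 0 and 1 without it. With age in TG mice 0 genes passed with a pseudocount of 1 or with every probe set on its own. With quantile scaling the sign turned for Mcl1 -0.061 between TG and WT mice of 12 months, and Mcl1 -0.030 with age in TG mice. With loess scaling the sign turned for Bid -0.00099 between TG and WT mice of 2 months, and Mcl1 -0.027 between TG and WT mice of 12 months, and Bak1 0.011 in the TG effect at 12 minus 2 months. With probe sets averaged per gene the sign turned for Bid -0.11, Bad 0.054 between TG and WT mice of 2 months, and Bcl2l11 0.12 between TG and WT mice of 12 months, and Bcl2l11 0.032 in the TG effect at 12 minus 2 months, and Bcl2l1 0.22, Bcl2l11 -0.017 with age in WT mice, and Bcl2l11 0.015, Bid 0.23 with age in TG mice. All had a size of at most 0.09 in the fit above, and the cause was not tested. Genes past the test numbered 0 to 2 between TG and WT mice of 2 months when each array was left out in turn (2 without the replicate 2 WT mouse of 2 months), and 0 to 7 at 12 months (7 without the replicate 2 TG mouse of 12 months). They numbered 0 to 4 with age in WT mice (4 without the replicate 2 WT mouse of 2 months) and 0 to 4 with age in TG mice (2 when the older replicate 1 TG mouse was left out, 4 for the older replicate 2 TG mouse, 0 for other arrays). Members numbered 0 in each. The sign of 30 of 45 member values turned without some array, where 1 mouse then stood for a group. Ranges between TG and WT mice of 2 months were Bcl2 -0.33 to 0.11, Mcl1 -0.46 to 0.16, Bak1 -0.054 to 0.52, Bcl2l11 -0.14 to 0.16, Bid -0.020 to 0.029, Bad -0.089 to 0.025, Bbc3 -0.019 to 0.53, Pmaip1 -0.50 to 0.49. Ranges between TG and WT mice of 12 months were Bcl2 -0.059 to 0.94, Mcl1 -0.10 to 0.23, Bak1 -0.0083 to 0.41, Bcl2l11 -0.38 to 0.28, Pmaip1 -0.77 to 0.073. Ranges in the TG effect at 12 minus 2 months were Bcl2l1 -0.82 to 0.041, Mcl1 -0.096 to 0.52, Bak1 -0.32 to 0.26, Bcl2l11 -0.39 to 0.27, Pmaip1 -0.83 to 0.15. Ranges with age in WT mice were Bcl2 -0.14 to 0.16, Bcl2l1 -0.45 to 0.32, Mcl1 -0.30 to 0.045, Bak1 -0.23 to 0.34, Bcl2l11 -0.039 to 0.072, Bbc3 -0.32 to 0.23, Pmaip1 -0.26 to 0.58. Ranges with age in TG mice were Mcl1 -0.22 to 0.40, Bak1 -0.19 to 0.23, Bcl2l11 -0.38 to 0.29, Bid -0.12 to 0.0051, Pmaip1 -0.67 to 0.31.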
